A study of Mus musculus with 4 samples.

Results

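Macrophage-like cells were followed in embryoid bodies grown from R1, an established mouse embryonic stem cell line. They were selected on measured values: a barcode was kept if it held at least 500 genes with at most 15% of its UMIs (unique molecular identifiers, 1 per captured transcript) from mitochondrially encoded genes, and was taken if it held a UMI in at least 4 of 7 genes, Tyrobp, Fcer1g, Csf1r, Ptprc, Coro1a, Laptm5 and Cd68. Of 13808 kept cells in 4 libraries, 389 were macrophage-like. All 4 groups were R1 embryoid bodies with no genetic change named in the labels, dissociated with Accumax, and each was 1 10x Genomics 3' library. The normoxia day 8 group had 8 days of normoxia, and the 16 h hypoxia group had 7.33 days of normoxia and then 16 h of hypoxia. The normoxia day 10 group had 10 days of normoxia, and the 48 h hypoxia group had 8 days of normoxia and then 48 h of hypoxia. The labels do not give the oxygen level. The labels name 1 line and no separate cultures or pools. With 1 library a group, no difference below has a replicate check, and no p-value is given.

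Macrophages are phagocytes of the innate immune system, and the first of them in the mouse arise in the yolk sac without passing through a blood stem cell. They depend on the receptor Csf1r and on the transcription factor PU.1, encoded by Spi1, and they signal through the adaptors Tyrobp and Fcer1g. Tissue macrophages clear debris with scavenger receptors such as Mrc1 and make complement C1q, and low oxygen engages HIF transcription factors in them as in most other cells.

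The 7 genes of the rule define the cells, so their levels are a description. Tyrobp, the ITAM adaptor of activating receptors, stood at 921 CPM (UMIs of the gene per 1000000 UMIs of the pooled macrophage-like cells of a library) at normoxia day 8, 918 in 16 h hypoxia, 1742 at normoxia day 10 and 1623 in 48 h hypoxia. In the other kept cells of the same libraries it stood at 0.278, 0.298, 1.62 and 0.774 CPM. Csf1r, the receptor for the growth factor CSF1, stood at 128, 125, 340 and 196 CPM in the same order. Cd68, an endosomal glycoprotein, stood at 35.7, 36.1, 291 and 106 CPM, so the 2 day 8 libraries were alike and normoxia day 10 was highest. At the edge of the rule, 9, 2, 6 and 14 members held 4 of the 7 genes, and 15, 10, 14 and 9 kept cells held 3 and were left out. The cells just outside had median depths of 23612, 21161, 3984 and 3916 UMIs in the 4 libraries, against 37929, 24301, 21417 and 13253 in the members, so the gap in depth was wide at day 10 and narrow in 16 h hypoxia.

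The label was checked against 18 other macrophage markers, all of which were seen in each library. Their summed level was 1820, 1478, 5707 and 1970 CPM in the members and 13.8 to 25.7 CPM in the other cells. Spi1 stood at 217, 258, 323 and 305 CPM, with a UMI in 98.3%, 94.4%, 95.5% and 89.7% of members and in 0.378% to 1.06% of other cells. Depth differed between them, with median UMIs per member of 37929, 24301, 21417 and 13253 against 22919, 18786, 20265 and 12786 in the other cells. After each cell was thinned to 2000 UMIs, Spi1 was seen in 36.2%, 36.1%, 46.6% and 48.2% of members. Markers of other blood lineages were also looked at. Of 12 genes of neutrophils and their progenitors, 5 to 7 were seen, at a sum of 86.0, 104, 49.9 and 40.5 CPM, and S100a8, S100a9, Elane, Ctsg and Retnlg were at 0 UMIs in the members of all 4 libraries. Those seen included Mpo, at 47.6, 19.1, 2.69 and 0 CPM in members and at most at 0.104 CPM in other cells. At normoxia day 8 Mpo was seen in 8 of 58 members, with 74% of its UMIs in 1 member. Prtn3 stood at 14.2, 43.5, 12.5 and 6.48 CPM, against 1.27 to 7.62 CPM in other cells. Cxcr2 stood at 5.95, 22.3, 4.03 and 10.8 CPM, and Csf3r between 14.9 and 29.1 CPM. Of 10 lymphoid genes, 2 to 4 were seen, at a sum of 13.7 to 26.4 CPM, and the T and B cell genes Cd3e and Ms4a1 were at 0 throughout. The B cell receptor component gene Cd79b stood at 9.61, 14.9, 19.7 and 17.8 CPM in members and at most at 0.0483 CPM in other cells. Of 8 monocyte genes, 5 to 7 were seen, at a sum of 318, 437, 1363 and 676 CPM, most of it from F13a1. Ly6c2, a marker of classical monocytes, had 2 UMIs in normoxia day 8 and 0 in the others. Ccr2, the monocyte chemokine receptor, stood at 32.0, 35.0, 13.2 and 11.9 CPM, and Plac8 at 81.4, 73.2, 29.1 and 84.7 CPM.

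Some members carried transcripts of other cells. The 12 mesenchymal markers summed to 527, 1154, 1207 and 1560 CPM in the pooled members, with a median member at 189, 152, 103 and 114 CPM, against 11204 to 12669 CPM in the other cells. Cells with 3 or more of 10 megakaryocyte markers made up 8, 2, 5 and 3 of the members. In 16 h hypoxia a single member held 12.2% of the members' UMIs. Of 14411 barcodes, 15 occurred in 2 libraries, 1 of these with a member in 1 of them. The part that free RNA, doublets and these cells had in the values below was not tested. The level in other cells, or the share of UMIs in the top member, is given beside many of the genes below.

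Macrophage-like cells were a larger share of the normoxic embryoid bodies at day 10 than at day 8, and a smaller share of each hypoxic library than of its normoxic control. They were 58 of 3168 kept cells at normoxia day 8, 1.83% (95% exact Clopper-Pearson interval 1.39 to 2.36), and 36 of 3345 in 16 h hypoxia, 1.08% (0.755 to 1.49). They were 179 of 2679 at normoxia day 10, 6.68% (5.77 to 7.69), and 116 of 4616 in 48 h hypoxia, 2.51% (2.08 to 3.01). All intervals here cover counting error only. With each cell thinned to 2000 UMIs, which left out 34, 60, 88 and 294 shallower cells, the shares were 0.702%, 0.426%, 4.59% and 1.53%. The order of the 4 libraries was the same, and the 2 day 8 intervals overlapped while the 2 day 10 intervals did not. Membership also depends on the level of the rule genes, which differed between libraries, with Cd68 at 35.7, 36.1, 291 and 106 CPM in members. Thinning does not remove this, and 22, 14, 119 and 66 cells met the rule after it. The parts of macrophage number, of recovery in dissociation and of rule gene levels in these shares cannot be told apart.

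**Figure D1:**
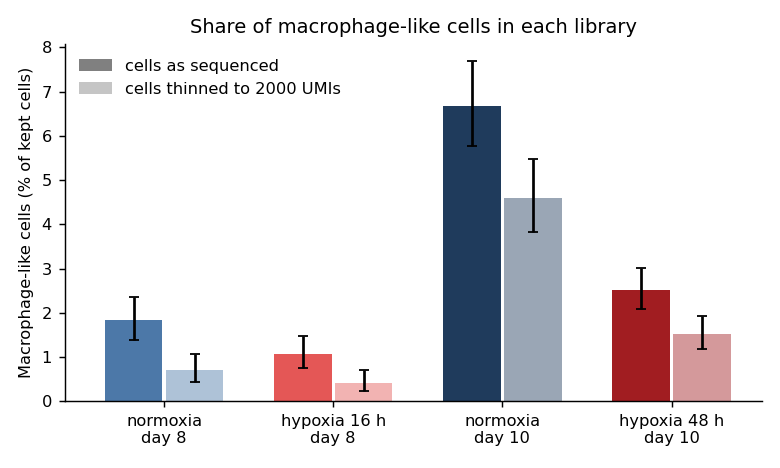
Share of kept cells that were macrophage-like (y axis, %) in each of the 4 libraries (x axis), as sequenced (dark) and with each cell thinned to 2000 UMIs (pale). Bars start at 0 and error bars are 95% exact binomial intervals for counting error. Normoxia day 10 stands highest at 6.68%, and 48 h hypoxia at 2.51%.

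The 20 genes most above the other cells included chemokines and surface and signalling proteins of leukocytes, in a ranking that the selection itself favours. Ccl3, a chemokine, stood at 866, 625, 519 and 503 CPM in the 4 libraries, and its close neighbour Ccl4 at 521, 141, 497 and 479 CPM. F13a1, a subunit of coagulation factor XIII made by macrophages and also on the monocyte list, stood at 179, 301, 1283 and 540 CPM, so normoxia day 10 held most. Cd52, a small surface glycoprotein of leukocytes, was closer to level at 536, 624, 737 and 860 CPM. Rac2, the blood cell GTPase of the oxidase and of migration, was also near level at 248, 312, 293 and 344 CPM.

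At day 10 of normoxia the pooled members stood higher in phagocytic and tissue macrophage genes than at day 8. This comparison shares 1 library with each hypoxia comparison, so their values are not independent. The make-up of the pools differed, with 8 of 58 and 5 of 179 members at 3 or more megakaryocyte markers. Cd34 was seen in 58.6% and 10.6% of members. The parts of a change within cells and of a different mix of cells were not tested. Of 6498 genes that averaged 20 CPM or more and had 30 UMIs or more, 479 were at least 2-fold higher and 462 at least 2-fold lower at day 10, on the scale of the log2 ratio of CPM + 1 used throughout. Of these, 50.9% were higher, against 63.9% with the median of all genes set to 0 and 62.5% with TMM scaling. Lists of related genes are read at 1.5-fold, which 15.1% of all genes passed as higher and 21.9% as lower, with a median log2 ratio over all genes of -0.11. The filter is on the mean, so a gene can pass through the library where it is high, as the hyaluronan receptor gene Lyve1 did at 3.66 and 63.4 CPM, and the list counts are descriptions of the genes that passed. Of 14 scavenger and phagocytic receptors that passed, of 31, 12 were higher and 0 lower, with a median of 1.74 against 0.11 in the other cells. Of 34 lysosomal genes, 29 were higher and 0 lower (median 0.98, other cells -0.06), and of 14 tissue-resident genes, 11 were higher and 0 lower (median 1.59, other cells 0.25). This list includes Csf1r, a gene of the rule, and shares Lyve1 and Gas6 with the scavenger list. The filter was set on the members, so genes almost absent from other cells enter the other-cell medians. Mrc1 stood at 0.399 and 0.980 CPM there, where the added 1 keeps a ratio small whatever the difference. For macrophage genes, here and in hypoxia, these medians do not show that a difference was particular to the members.

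Apoe, the lipid-carrying apolipoprotein of tissue macrophages, stood at 83.7 CPM at day 8 and 2283 at day 10, a log2 ratio of 4.75 (95% interval of the ratio without the added 1, 4.56 to 4.99). In the other cells it stood at 487 and 348 CPM. Lyz2, the macrophage lysozyme, stood at 27.9 and 255 CPM (3.14), and Ctss, a lysosomal cysteine protease, at 16.9 and 159 CPM (3.15). Selenop, a secreted selenium carrier, stood at 79.6 and 731 CPM (3.18). Fxyd2, a regulator of the sodium pump, had 0 UMIs at day 8 and 371 at day 10, at least 60.5-fold higher when set against a floor of 3 UMIs. Spp1, osteopontin, stood at 20.1 and 785 CPM (5.22), but 64% of its day 10 UMIs lay in 1 cell. The genes that were lower included Chn2, a Rac-directed GTPase activator, at 183 and 28 CPM (-2.67), Flt1, a VEGF receptor, at 83.7 and 13.7 CPM (-2.53), and Bcl11a, a blood transcription factor, at 40.3 and 4.26 CPM (-2.97). Clec1b, the platelet receptor CLEC-2, stood at 81.9 and 4.03 CPM (-4.04), with 28% of the day 8 UMIs in 1 member.

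Signals of division were lower at day 10 as well. Among 29 genes of S phase, 28 stood lower and 0 higher (median -1.02, other cells -0.42), among them the replication helicase gene Mcm2 at 88.8 and 29.3 CPM. Of 21 immediate early and heat shock genes, 15 were higher and 4 lower (median 1.27, other cells 0.51). Fosb, an AP-1 subunit induced by many stimuli including cell dissociation, stood at 16.9 and 113 CPM in members and at 16.1 and 81.8 CPM in other cells. The part of dissociation in these values was not tested.

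In 16 h hypoxia HIF targets and glycolysis genes were higher in the members, and S phase genes were lower. Of 6410 genes, 297 were at least 2-fold higher and 447 at least 2-fold lower than at normoxia day 8. The median over all genes was -0.10, and the share of higher genes among these was 39.9%, against 51.9% with that median set to 0. The HIF list, which leaves glycolysis aside, had 36 genes past the filter, of which 31 were at least 1.5-fold higher and 0 lower, where 12.4% of all genes were higher and 20.1% lower. Their median was 1.20 in the members and 1.77 in the other cells. Of 13 glycolysis genes, 11 were higher and 0 lower, with a median of 0.97 in the members and 1.68 in the other cells. The summed glycolysis level of a median member was 9728 CPM in normoxia and 18822 in hypoxia, against 4501 and 16181 CPM in a median other cell, so the members began higher.

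Ankrd37, a direct HIF target, stood at 11.4 CPM in normoxia and 133 in hypoxia, a log2 ratio of 3.43 (2.91 to 4.22), and at 4.95 and 41.4 CPM in the other cells. Egln3, a prolyl hydroxylase that marks HIF for destruction, stood at 15.6 and 96.5 CPM (2.56), and Bnip3, a mitophagy receptor, at 55.8 and 206 CPM (1.86), against 57.2 and 266 CPM for Bnip3 in other cells. Slc2a1, the glucose transporter GLUT1, stood at 101 and 241 CPM (1.24) in members and at 351 and 805 CPM in other cells. Pgk1, a glycolytic kinase, stood at 952 and 2552 CPM (1.42) in members and at 387 and 2010 CPM in other cells. Ldha, lactate dehydrogenase A, stood at 1610 and 2334 CPM, a log2 ratio of 0.53 in members and 1.83 in other cells. Hif1a itself was near level at 94.7 and 89.1 CPM. Plod2 and P4ha2, hydroxylases of collagen, had ratios of 3.27 and 3.19, but P4ha2 stood higher in other cells than in members, at 698 and 95.5 CPM in hypoxia.

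The promoters of Ankrd37 and P4ha2 are shown because both genes were among the 10 with the highest ratio in 16 h hypoxia and belong to the HIF list. All promoters printed here were chosen after the values were seen. Each is the 250 bases before the RefSeq start site (GRCm38.p6, 5' to 3' on the gene's strand), with capitals for ACGTG, the core that HIF binds, found on either strand. They lie at chr8:45999851-46000100 (minus strand) and chr11:54100674-54100923 (plus strand).
Ankrd37: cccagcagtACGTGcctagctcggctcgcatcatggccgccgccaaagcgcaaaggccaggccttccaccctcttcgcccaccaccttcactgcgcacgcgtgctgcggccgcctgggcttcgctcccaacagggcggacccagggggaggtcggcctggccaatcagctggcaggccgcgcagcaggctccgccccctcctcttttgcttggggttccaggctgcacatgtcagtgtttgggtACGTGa
P4ha2: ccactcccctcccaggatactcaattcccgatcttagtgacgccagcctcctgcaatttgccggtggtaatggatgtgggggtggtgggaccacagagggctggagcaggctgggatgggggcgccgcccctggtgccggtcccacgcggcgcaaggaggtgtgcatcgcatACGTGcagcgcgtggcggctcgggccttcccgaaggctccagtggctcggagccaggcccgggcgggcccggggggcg
This core was in 16.6% of 32851 promoters of this length, and in 27 of the 54 promoters matched to 41 of the 50 HIF list genes. A match is a description of the letters and not a site of binding.

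Genes outside the HIF list were also high in 16 h hypoxia. Il15, a cytokine that sustains lymphocytes, stood at 3.20 CPM in normoxia and 46.7 in hypoxia (3.5; 2.70 to 5.26), and at 0.773 and 0.635 CPM in other cells. Gpr141, an orphan receptor, stood at 11.9 and 84.9 CPM (2.74), and at 0.109 and 0.117 CPM in other cells. Upp1, uridine phosphorylase, had the highest ratio, 4.26, at 3.20 and 79.6 CPM, and stood at 7.52 and 22.1 CPM in other cells. Hmox1, heme oxygenase, stood at 54.0 and 170 CPM (1.63), against 31.0 and 38.3 CPM in other cells, and Lgals3, galectin-3, at 43.5 and 149 CPM (1.75). Cd74, the invariant chain of MHC class II, stood at 13.3 and 59.4 CPM (2.08), with 43% of the hypoxic UMIs in 1 member, and its ratio was -0.13 among members with all 7 genes of the rule.

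Among the 10 genes with the lowest ratios in 16 h hypoxia, Rrs1, a ribosome assembly factor, stood at 59.0 and 4.24 CPM (-3.52; -5.70 to -2.41). Mybbp1a, a nucleolar protein, stood at 205 and 41.4 CPM (-2.28), Pus7, a pseudouridine synthase, at 39.8 and 7.42 CPM (-2.28), and Cad, which starts pyrimidine synthesis, at 49.4 and 7.42 CPM (-2.58). In other cells the ratios of Rrs1, Mybbp1a and Pus7 were -0.71, -0.76 and -0.68. Among 29 genes of S phase, 19 stood lower and 0 higher, with a median of -0.76, while the 30 G2 and M phase genes had a median of 0.01, with 1 lower. Mki67, the proliferation marker Ki-67, stood at 290 and 300.2 CPM. Rab7b, a late endosome GTPase of macrophages, stood at 89.7 and 14.9 CPM (-2.52), against 1.41 and 1.69 CPM in other cells.

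Scavenger and chemokine genes differed in parts in 16 h hypoxia. Of 11 scavenger and phagocytic receptors, 3 were higher and 3 lower, with a median of -0.10. Mrc1, the mannose receptor, stood at 239 and 49.9 CPM (-2.24; -2.73 to -1.83), with 66% of the 47 hypoxic UMIs in 1 member. Stab1, stabilin-1, which clears modified lipoproteins, stood at 56.3 and 12.7 CPM (-2.06). Of 10 chemokine and cytokine genes, 3 were higher and 3 lower, with Ccl4 at a ratio of -1.88 and Ccl6, a chemokine, at 294 and 502 CPM (0.77). Of 30 lysosomal genes, 4 were higher and 4 lower (median -0.09, or 0.01 with the median of all genes set to 0), with Ctsb, cathepsin B, at a ratio of -0.97. Igf1, a growth factor made by macrophages, stood at 205 and 93.3 CPM (-1.13). Pf4, a platelet chemokine, had 609 UMIs in normoxia, 82% of them in 1 member, and 1 UMI in hypoxia.

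After 48 h of hypoxia the scavenger receptor Mrc1, complement C1q and tissue-resident genes stood lower in the members than at normoxia day 10. Il1b stood higher. Of 6242 genes, 350 were at least 2-fold higher and 704 at least 2-fold lower than at normoxia day 10. The median of all genes was -0.21, against which the values below may be read. With TMM scaling it was -0.06, and 471 genes were higher and 508 lower. With it set to 0, 506 were higher and 416 lower, so the share of higher genes was 33.2%, 48.1% and 54.9% under the 3 scalings. Among the 2562 genes that stood above the other cells in both libraries, a set chosen after seeing the data, 104 were higher and 387 lower.

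Of 8 complement genes, 6 stood lower by 1.5-fold or more and 0 higher, where 27.7% of all genes were lower and 12.2% higher, and their median was -1.16 (other cells -0.17). It was -2.69 at a mean of at least 50 CPM and -0.31 with no filter, since the filter sets which of the 19 genes enter. Mrc1 stood at 1025 CPM at normoxia day 10 and 20.5 in 48 h hypoxia, a log2 ratio of -5.58 (-6.14 to -5.18). C1qa, C1qb and C1qc, the 3 chains of the recognition part of complement C1, stood at 324, 1065 and 627 CPM in normoxia and at 18.9, 165 and 85.8 CPM in hypoxia. Their ratios were -4.03, -2.69 and -2.85. The 48 h hypoxia group had 8 days of normoxia first. At normoxia day 8 C1qa, C1qb and C1qc stood at 19.7, 332 and 113 CPM, and Mrc1 at 239 CPM. In 48 h hypoxia C1qa was thus near its day 8 level, and Mrc1 was below it. Whether levels fell in hypoxia or rose less than in normoxia was not tested. The 3 genes lie side by side on the minus strand of chromosome 4 (mm10), C1qb at 136880129 to 136886187, C1qc at 136889804 to 136893065 and C1qa at 136895917 to 136898803. In the other cells none of the 4 genes passed 1 CPM in either library, so the added 1 keeps their ratios small there whatever the difference.

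The promoter of C1qb is shown because this was the most abundant of the 3 at normoxia day 10 by UMIs. It is the 250 bases before the RefSeq start (GRCm38.p6, minus strand), at chr4:136886201-136886450. Capitals mark GAGGAA on either strand, a core bound by PU.1 and other ETS factors.
C1qb: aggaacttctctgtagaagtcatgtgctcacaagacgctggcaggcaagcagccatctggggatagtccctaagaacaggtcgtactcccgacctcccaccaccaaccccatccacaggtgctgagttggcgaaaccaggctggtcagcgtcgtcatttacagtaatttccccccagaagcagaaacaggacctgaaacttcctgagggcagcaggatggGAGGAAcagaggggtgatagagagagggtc
These letters were in 23.3% of all promoters of this length, and in 13 of the 21 promoters matched to 18 of the 25 macrophage marker genes and 6 of the 13 matched to 12 of the 19 complement genes. Spi1 itself stood at 323 and 305 CPM (-0.08; -0.22 to 0.06).

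Of 14 tissue-resident and microglia-type genes that passed the filter, Csf1r of the rule among them, 11 were lower and 1 higher, with a median of -1.04 (other cells -0.27). Lyve1, found on perivascular macrophages, stood at 63.4 and 1.62 CPM, and Stab1 at 210 and 7.56 CPM (-4.62). Fcrls, an Fc receptor-like gene, stood at 169 and 17.3 CPM (-3.22), Gpr34, a lysophospholipid receptor, at 60.9 and 6.48 CPM (-3.05), and Selenop at 731 and 103 CPM (-2.81). Maf, a transcription factor of tissue macrophages, stood at 734 and 145 CPM (-2.33), and Apoe at 2283 and 613 CPM (-1.90). Apoe and Selenop stood lower still at normoxia day 8, as given above. Ms4a6c and Ms4a6b, membrane proteins of the MS4A family so alike that reads may be split between them, had 281 and 353 UMIs in normoxia and 1 and 4 in hypoxia. Trem2, a lipid-sensing receptor, stood at 220 and 61.0 CPM (-1.83), and Cx3cr1, the fractalkine receptor, at 503 and 225 CPM (-1.16).

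Other receptors and lysosomal genes differed less. The 18 scavenger and phagocytic receptors that passed the filter, of 31, had a median of -0.09, or 0.13 with the median of all genes set to 0, with 3 higher and 7 lower. Of 34 lysosomal genes, 13 were lower and 0 higher (median -0.49, other cells -0.35), with Ctsb at 1974 and 764 CPM. Ctss, Cybb, a subunit of the phagocyte oxidase, and Cd14, the endotoxin co-receptor, had ratios of -0.19, 0.19 and -0.12. Lyz2 stood at 255 and 127 CPM, but 62.6% of its hypoxic UMIs lay in 1 member. Spp1 had a ratio of -1.31, and of -0.47 with each cell weighing the same.

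**Figure D2:**
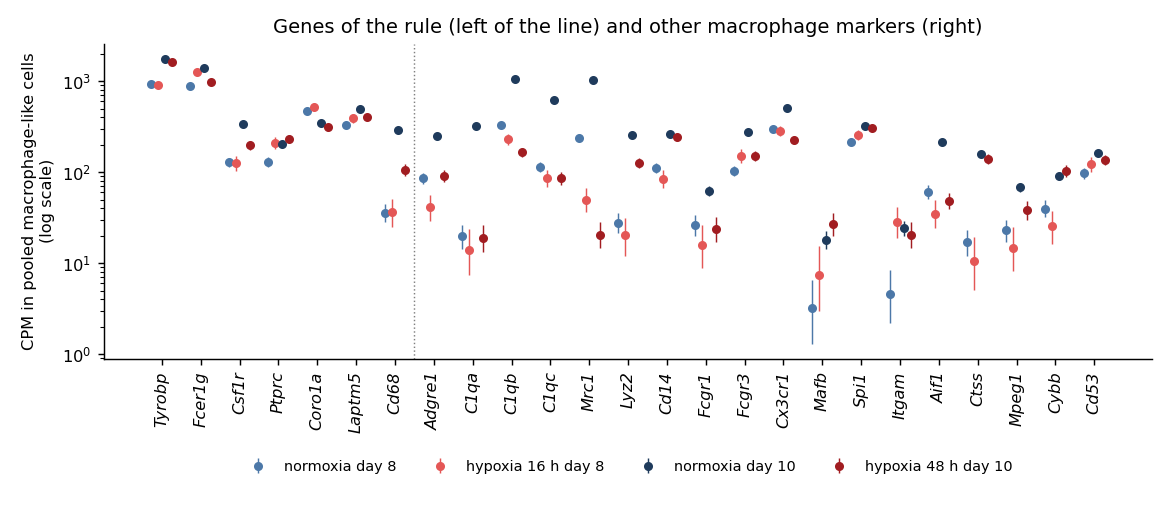
Level of the 7 genes of the rule and 18 other macrophage markers (x axis) in the pooled macrophage-like cells, in CPM on a log scale (y axis). Each point is 1 library, and bars are 95% exact Poisson intervals for counting error. Mrc1 stands at 1025 CPM at normoxia day 10 and 20.5 in 48 h hypoxia, while Spi1 stays between 217 and 323 CPM.

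Il1b, the gene of the inflammatory cytokine interleukin-1 beta, stood higher in 48 h hypoxia. It stood at 11, 26.5, 148 and 820 CPM in normoxia day 8, 16 h hypoxia, normoxia day 10 and 48 h hypoxia, and at most at 0.267 CPM in the other cells. The day 10 log2 ratio was 2.46 (2.33 to 2.60), and the top member held 11.5% of its UMIs in normoxia and 5.4% in hypoxia. Ptgs2, cyclooxygenase-2, stood at 5.38 and 73.9 CPM at day 10 (3.56), below the 31.6 and 90.3 CPM of the other cells. Cd74 stood at 24.4 and 104 CPM (2.05) and Tnfaip2 at 27.1 and 70.2 CPM (1.34). Of 23 genes of NF-kB and inflammatory activation, 5 were higher and 9 lower, with a median of -0.30. Tnf, a further inflammatory cytokine, stood at 30.2 and 10.2 CPM (-1.47), so Il1b and Tnf differed in opposite directions.

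The same UMIs were then counted member by member, as a description and not a further check. A UMI of Mrc1 or of a C1q gene was seen in 38 of 58, 12 of 36, 171 of 179 and 60 of 116 members, and in 1.09%, 0.756%, 3.28% and 0.444% of other cells. With 2000 UMIs a cell the shares of members were 43.1%, 19.4%, 88.1% and 28.9%. A UMI of Il1b was seen in 9, 5, 60 and 89 members, or 3.45%, 2.78%, 16.5% and 58.8% of them at 2000 UMIs. In 48 h hypoxia 50 members held both, 39 held Il1b alone, 10 held Mrc1 or C1q alone and 17 neither. At normoxia day 10 the same counts were 58, 2, 113 and 6. These counts were not thinned, and median depth was 13253 UMIs in 48 h hypoxia and 21417 at normoxia day 10. Cd34, a surface protein of blood progenitors and endothelium, was seen in 34, 29, 19 and 66 members, at 49.0, 153, 10.8 and 100.4 CPM. After thinning its shares were 8.62%, 22.2%, 1.14% and 21.1%, so each hypoxic library stood above its control. Myb, a transcription factor of stem cell derived blood, had 30, 9, 0 and 1 UMIs (13.7, 9.55, 0 and 0.540 CPM). Kit had 27, 15, 9 and 5 UMIs (12.4, 15.9, 2.02 and 2.70 CPM). The counting intervals of Kit overlapped between each hypoxic library and its control.

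**Figure D3:**
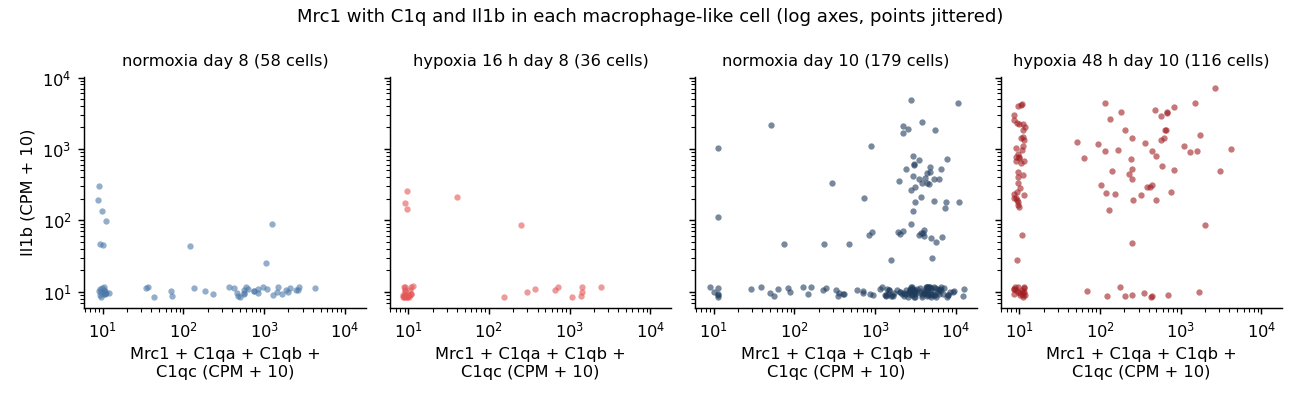
Summed Mrc1, C1qa, C1qb and C1qc (x axis) against Il1b (y axis) in each macrophage-like cell, both as CPM + 10 on log axes with jitter, 1 panel a library. At normoxia day 10, 113 of 179 cells held Mrc1 or C1q without Il1b, and in 48 h hypoxia 39 of 116 held Il1b without Mrc1 or C1q.

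Interferon-induced genes were higher in 48 h hypoxia through very few cells. Of 13 interferon response genes, 5 were higher and 1 lower, with a median of 0.33 (other cells -0.67). Rsad2, the antiviral protein viperin, had 0 UMIs in the members at normoxia day 10 and 85 in 48 h hypoxia, at least 68.3-fold higher against a floor of 3 UMIs in the library at 0. Usp18, which removes the ubiquitin-like ISG15, had 5 and 83 UMIs, Ifit2, an RNA-binding antiviral protein, 13 and 103, and Isg15 itself 19 and 96. Of the 116 members in hypoxia, 5 held all 6 of Rsad2, Usp18, Ifit1, Ifit2, Ifit3 and Isg15, genes picked after their values were seen, and these 5 held 85.2% of the members' 472 UMIs of these genes, while 75 members held none. Without those 5 cells, an alternative chosen after seeing the data, the list's median was -0.01 and the Ifit2 ratio -0.01. At normoxia day 8, 1 member held all 6 genes and 76.5% of the 132 UMIs. No member of the other 2 libraries held more than 3. Among other cells, 2, 5, 6 and 1 held at least 5 of the genes.

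The promoters of Rsad2 and Isg15 are shown as those of genes that marked these cells. They lie at chr12:26456453-26456702 and chr4:156200819-156201068 (GRCm38.p6, both minus strand, 250 bases before the start). Capitals mark GAAANNGAA on either strand, the core of the interferon-stimulated response element, in which N is any base.
Rsad2: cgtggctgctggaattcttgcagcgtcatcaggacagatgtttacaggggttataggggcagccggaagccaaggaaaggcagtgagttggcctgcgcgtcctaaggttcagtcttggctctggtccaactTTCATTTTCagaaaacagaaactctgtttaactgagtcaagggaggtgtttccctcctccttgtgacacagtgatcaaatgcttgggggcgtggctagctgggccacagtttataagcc
Isg15: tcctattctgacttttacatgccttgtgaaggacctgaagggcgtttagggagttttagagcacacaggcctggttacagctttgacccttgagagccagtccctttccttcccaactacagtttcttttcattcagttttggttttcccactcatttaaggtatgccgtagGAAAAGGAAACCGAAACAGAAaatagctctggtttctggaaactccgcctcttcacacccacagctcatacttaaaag
Rsad2 held 1 match and Isg15 3 overlapping ones. The core was in 7.13% of all promoters of this length and in 12 of the 26 promoters matched to 22 of the 30 interferon list genes, but at neither of the 2 listed starts of Ifit2.

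Mitochondrially encoded transcripts made up a larger share of UMIs in the hypoxic members than in the cells around them. They made up a median of 3.59%, 3.11%, 4.36% and 3.82% of a member's UMIs in normoxia day 8, 16 h hypoxia, normoxia day 10 and 48 h hypoxia. In the other cells the medians were 3.95%, 1.85%, 3.87% and 0.540%. In 48 h hypoxia the middle 50% of members lay between 2.29% and 4.59% and that of the other cells between 0.234% and 1.18%, and 8.73% of other cells reached the members' lower quartile. Of the 116 members, 3 lay below the other cells' median, against 66 of 179 at normoxia day 10. Over the 13 genes, the median log2 ratio at day 10 was -0.54 in members, with 5 lower and 0 higher, and -2.08 in other cells, with 13 lower. At day 8 it was -0.16 and -1.15. mt-Nd3, a subunit of complex I, stood at 1189 and 622 CPM in members at day 10 (-0.93), and at 1167 and 152 CPM in other cells (-2.93). In 48 h hypoxia, other cells with at least 4 markers of a class had medians of 1.94% for 14 endothelial, 0.887% for 16 megakaryocyte, 0.575% for 3941 mesenchymal, 0.481% for 46 endoderm and epithelial, 0.469% for 52 cardiomyocyte and 0.301% for 19 erythroid cells, so none of these 6 reached the members' median. The rule allowed up to 15% in members and other cells alike, and depth was similar, at medians of 13253 and 12786 UMIs. The overlap was wider in 16 h hypoxia, where the middle 50% of members lay between 2.36% and 3.77%. There 30.3% of other cells reached the members' lower quartile. The 31 other cells with at least 4 megakaryocyte markers had a median of 2.58% in that library, with quartiles of 2.05% and 3.16%.

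**Figure D4:**
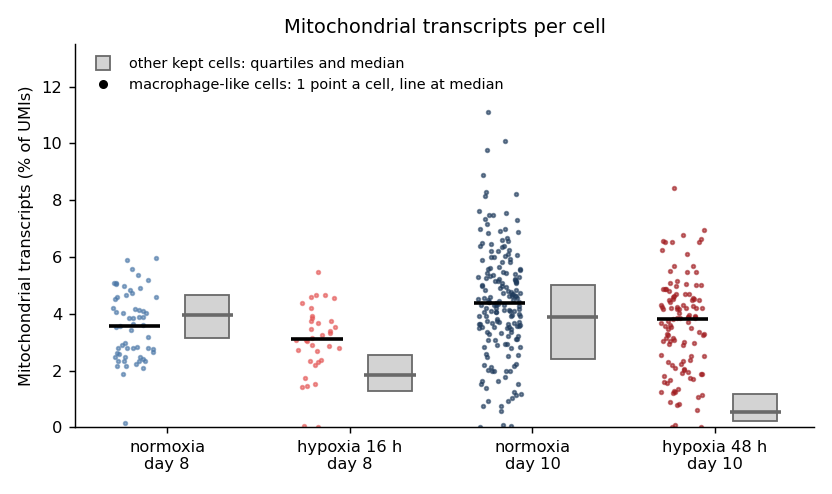
Percent of a cell's UMIs from mitochondrially encoded genes (y axis) in each library (x axis). Coloured points are macrophage-like cells with a line at their median, and grey boxes are the quartiles and median of the other kept cells. In 48 h hypoxia the members' median is 3.82% and that of the other cells 0.540%.

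Nuclear genes of oxidative phosphorylation did not show that gap. Of 51 such genes, 28 were lower in 48 h hypoxia and 0 higher in members, with a median of -0.63, against 23 lower and a median of -0.52 in other cells. Cycs, cytochrome c, stood at 99.7 and 40.5 CPM in members (-1.28) and at 67.9 and 36.3 CPM in other cells (-0.88).

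HIF targets were also higher in the members after 48 h, while most glycolysis genes stayed within 1.5-fold. Among 37 genes of the HIF list, 23 were higher and 0 lower, with a median of 0.71 in members and 1.04 in other cells. Ndrg1, a stress-induced gene, stood at 6.94 and 53.4 CPM (2.78; 2.35 to 3.58), Slc2a1 at 49.9 and 256 CPM (2.33), and Vegfa, which drives vessel growth, at 11.4 and 37.8 CPM (1.64). All 3 stood higher in other cells, at 31.8 and 158 CPM for Ndrg1, 200 and 953 for Slc2a1 and 39.3 and 150 for Vegfa. Slco4a1, an organic anion transporter, stood at 2.69 and 56.7 CPM (3.97), against 0.843 and 8.99 CPM in other cells. Of 14 glycolysis genes, 5 were higher, 1 lower and 8 between, with a median of 0.27 in members and 1.18 in other cells. Ldha stood at 908 and 919 CPM in members, a log2 ratio of 0.02 (-0.07 to 0.10), and at 400 and 1086 CPM in other cells (1.44). Hk3, the hexokinase of myeloid cells, stood at 47.3 and 19.4 CPM (-1.24). The summed glycolysis level of a median member was 6793 and 8940 CPM, against 4159 and 10498 CPM in a median other cell, so the order of members and other cells differed between the 2 libraries.

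The ATF4 and stress response list, which holds genes of amino acid supply, had a median of 0.04 in the members after 48 h, with 4 higher and 4 lower of 18, and of 1.14 in other cells, with 12 higher and 1 lower. Psat1, an enzyme of serine synthesis, stood at 52.9 and 20 CPM in members (-1.36) and at 10.4 and 25.3 CPM in other cells (1.20). Phgdh, which starts that pathway, stood at 118 and 40.5 CPM in members (-1.53), and Nupr1, a stress-induced nuclear protein, at 76.2 and 186 CPM (1.28), against 58.1 and 372 CPM for Nupr1 in other cells.

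Division genes were lowest after 48 h. The 20 S phase genes that passed the filter were each lower in the members, with a median of -1.76, and the same number of genes was lower in other cells (-1.98). The summed S phase level of a median member was 3564, 1496, 737 and 298 CPM in the 4 libraries, and 1335, 631, 772 and 356 CPM in other cells. At 2000 UMIs, 94.8%, 69.4%, 50.6% and 13.2% of members held at least 2 S phase genes. Among 30 genes of the G2 and M phases, 16 stood lower and 0 higher (median -0.74, other cells -1.55), and the median was -2.01 among members with all 7 genes of the rule. Mki67 stood at 190 and 63.7 CPM at day 10 (-1.56).

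Several of the highest and lowest genes at day 10 had most of their hypoxic UMIs in 1 member or stood higher in other cells. Whether the members' UMIs of the latter came from other cells was not tested. Mmp12, macrophage elastase, had 2 and 103 UMIs, 90% of the latter in 1 member, and Htra1, a secreted protease, had 84% of its 90 hypoxic UMIs in 1 member. Igfbp7, an IGF-binding protein, stood at 15.5 and 242 CPM in members (3.89), below the 103 and 344 CPM of other cells, and Ccn2 and the keratin gene Krt19 were likewise higher in other cells. Tenm4, a teneurin, had 266 UMIs in normoxia and 0 in hypoxia, at least 36.8-fold lower, and stood at 390 and 10.6 CPM in other cells. Ednrb, an endothelin receptor, stood at 100.3 and 6.48 CPM in members (-3.76), and its level in other cells is not given here.

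**Figure D5:**
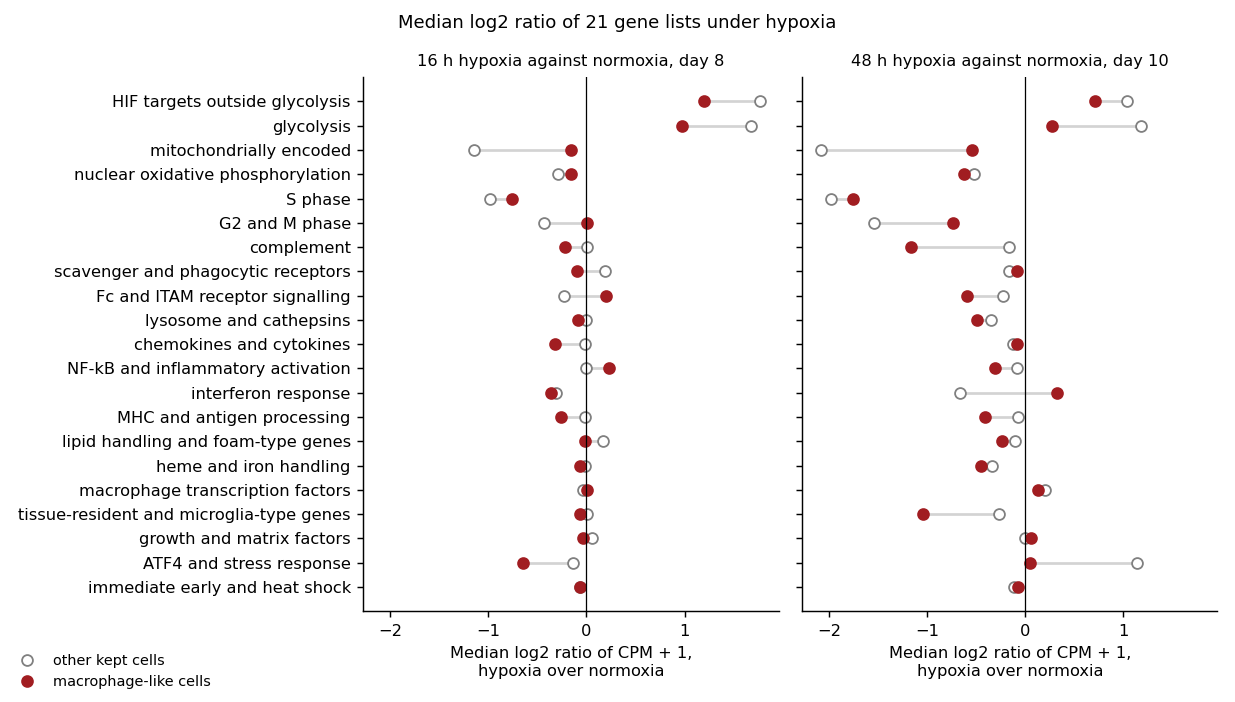
Median log2 ratio of CPM + 1 (x axis, hypoxia over normoxia) of the genes of 21 lists (y axis) that passed the filter, in macrophage-like cells (filled) and other kept cells (open), for 16 h (left) and 48 h (right). The mitochondrially encoded genes stand at -0.54 in members and -2.08 in other cells after 48 h, and the complement genes at -1.16 and -0.17. For genes almost absent from other cells, as C1q, the added 1 keeps the ratio in those cells small.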

How the data were processed

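Single-cell RNA was counted in 4 10x Genomics libraries of embryoid bodies, 1 per group. The deposited matrices are unnormalised UMI counts, which the authors made with Cell Ranger 7.1.0 on mm10, per the submitters' processing notes. The use of intronic reads is not stated in the labels. The files list 32285 gene IDs, of which 32235 matched GENCODE M21 (mm10), used for coordinates. For the 38 symbols with several IDs, the ID of most UMIs stood for the symbol. Members and gene lists were chosen with earlier results of these data known.

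Kept barcodes had at least 500 genes and at most 15% mitochondrial UMIs. The libraries held 63117306 to 85379390 UMIs, and the pooled members 2185843, 942724, 4464735 and 1852980, which sets the precision of each level. Doublets were not called or removed. UMIs were summed over members in each library, scaled to CPM, and compared by log2(CPM + 1) of the later or hypoxic library minus that of the other, for genes that averaged 20 CPM or more and had 30 UMIs or more. Intervals at 95% are exact Poisson for levels, Clopper-Pearson for shares and conditional binomial for ratios, and treat UMIs as independent. Thinning drew 2000 UMIs a cell without replacement. Named genes were the 10 highest and 10 lowest of each hypoxia comparison (6 and 6 for age), up to 4 a list with the largest ratio, a fixed set of markers and HIF targets, and the 20 genes most above other cells. The text names some of them, markers of other cell types, and Ifit1, Ifit3, Cd34, Myb and Kit, chosen after their values were seen. Mitochondrial, ribosomal and globin genes, markers of other cells and unnamed gene models were left out of the highest and lowest. Of the list genes, 4 had no row under their symbol. The comparison was run on Poisson counts drawn from the pooled means with known folds put in. That run held no variation between cells or libraries, so it checks the calculation alone. The tools were matplotlib 3.10.9, pandas 2.3.3, scipy 1.17.1, numpy 2.4.6 and Python 3.11.15, with edgeR 4.0.16 in R 4.3.3 for TMM factors alone. Promoter sequences are RefSeq's. Alternatives were other pseudocounts, filters, scalings, weightings and member rules.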

Additional observations from a re-analysis of the deposited data

Results flagged for a closer look

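Among the named genes, 2 had log2 ratios of at least 2-fold in opposite directions at the 2 ages, a difference that was not tested and that rests on 1 library a group. Kcnc2, a potassium channel gene, had a log2 ratio of 3.37 in 16 h hypoxia at day 8 and of -3.93 in 48 h hypoxia at day 10. Of its 71 UMIs in 16 h hypoxia, 93% lay in 1 member, and at day 10 it had 247 UMIs in normoxia and 5 in hypoxia. Pltp, which transfers phospholipids between lipoproteins, had a ratio of 2.07 at day 8, from 16 and 32 UMIs, and of -1.01 at day 10.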

How the results depend on the processing

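Requiring all 7 genes of the rule, leaving out interferon-gene cells, and taking only genes above the other cells were chosen after seeing the data. With all 7 genes required, the shares of macrophage-like cells were 0.821%, 0.419%, 5.34% and 0.975%, and with cells thinned to 2000 UMIs 0.702%, 0.426%, 4.59% and 1.53%, while the other 6 rules stayed within the counting intervals. At day 8 the genes at least 2-fold higher and lower numbered 148 and 181 at a mean of at least 50 CPM, 2000 and 2038 with no filter, and 103 and 232 among genes above the other cells, with 250 lower at a pseudocount of 10 and 698 lower with all 7 genes of the rule. At day 10 they were 139 and 303, 1916 and 1879, and 104 and 387 under the same settings, with 414 lower at a pseudocount of 10 and 416 lower with the median of all genes set to 0. For age they were 251 and 231, 1651 and 1477, and 224 and 215, with 265 lower at a pseudocount of 10. The higher filter tests fewer genes, and the lack of one adds genes of few UMIs. Of 756 list medians under alternatives, 713 moved by less than 0.29 on the log2 scale, 43 moved by more, and 0 of those past 1.5-fold turned. Some of the 713 could not move further. The medians of all genes were -0.10, -0.21 and -0.11, so setting them to 0 shifts a list by less than 0.29. Leaving out members of many mesenchymal UMIs kept all 58 and 36 members of the day 8 libraries. Of 4308 ratios of named genes, 3886 stayed within their counting interval. Among genes at least 2-fold different in the main setting, 2 ratios turned. Cd74 at day 8 was -0.13 with all 7 genes of the rule, and Ifit2 at day 10 was -0.00508 without the interferon-gene cells. Turns of smaller ratios were not counted as turned. No paired analysis was possible because each group had 1 library. Low-count genes are limited by the 942724 UMIs of the 16 h hypoxia members.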
